A study of Mus musculus with 7 samples.

Results

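Guidance ligands and receptors were read in the posterior second heart field of mouse embryos at embryonic day (E) 9.5 that carried or lacked Sonic hedgehog (Shh). They were taken by gene symbol, in a set of families proposed with earlier results of these data known, and comprise the semaphorins of classes 3 to 7, the plexins and neuropilins, the slits and Robo receptors, the netrins with Dcc and the Unc5 receptors, and the ephrins with the Eph receptors. The array named 67 of these genes on 121 probes, out of 21475 genes on 34747 probes. They were 34 ligands and 33 receptors, and each gene was read by its brightest probe, the one with the highest mean signal over all arrays.

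The second heart field is the mesoderm behind the early heart tube that adds cells to it, and its posterior part gives the atrial septum. The arrays compared 4 pools of Shh -/- with 3 pools of Shh +/+ embryos, all from crosses of superovulated Shh +/- females with Shh +/- males on a mixed background that the labels give as C56B/6 and CD-1. The dissected tissue kept the attached foregut and left out the heart, the neural tube and the dorsal lateral plate mesenchyme. RNA of each pool was labelled with Cy3 and hybridised to its own 1-colour array. The null allele was present in every cell from conception, so tissue composition and expression per cell could both vary, and in such bulk samples fewer cells of a type and less RNA per cell cannot be told apart.

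Each of 3 slides carried the mutant and the wild-type array of pools 1, 3 and 4. The mutant array always lay in the first position and the wild type in the second, and thus an effect of position and one of genotype cannot be told apart. The fourth mutant array, of pool 2, had a slide without a wild-type partner and, by its label, may have leaked during hybridisation. On single arrays, 58 to 64 of the 67 guidance genes had a signal well above background. The labels do not say how many embryos made up a pool, and p-values measure the spread between these pools. The Shh probe read 9.67, 9.39, 9.22 and 9.32 in mutant pools 1 to 4 against 10.72, 10.74 and 9.98 for wild-type pools 1, 3 and 4 (normalized log2 signal). The groups did not overlap (log2 change -1.08, SE 0.20, limma adjusted p = 0.0655; exact two-sided permutation p = 0.0286, the smallest that the 35 splits allow). Whether this probe lies in the deleted part of the gene is not given in the sources used here. The list of Shh and its target genes had 5 of 5 lower in the mutants (1 passing the test), and Hhip, a secreted Hedgehog antagonist induced by the pathway, fell by 2.83 on the log2 scale (limma adjusted p = 0.00126).

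Guidance molecules steer migrating cells and growing axons. Class 3 semaphorins are secreted and bind neuropilins, which pair with plexins to signal, whereas semaphorins of the other classes mostly bind plexins directly. Slits repel cells through Robo receptors, netrins attract through Dcc and repel through Unc5 receptors, and ephrins are membrane-bound and signal by contact to Eph receptors on the next cell. In the developing heart they are known for guiding neural crest and endothelial cells and for shaping the outflow tract and the venous connections.

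No guidance gene passed the test between the genotypes. Of the 67, 60 were tested, that is, had a signal well above background throughout the mutant or throughout the wild-type arrays, and 0 of them reached an adjusted p under 0.05 in limma, the lowest being 0.156. Among all 23129 probes tested, of 14896 genes, 129 passed, or 0.558%. These include several probes of some genes and dimmer ones, whereas each guidance gene was read by its brightest probe alone. At an unadjusted p under 0.05, 10 of the 60 stood apart (16.7%), against 7.95% of all probes. Of these, 6 were higher and 4 lower in the mutants (all probes 3.96% and 3.99%). The count was 0 with the log2 values as the authors deposited them, whose medians differ between arrays, and 7 to 11 in the other alternatives. In the 59 with a value on every array, the pools of the genotypes did not overlap for 10 (16.9%), against 8.33% of all probes. The mutants were higher in 7 of these and lower in 3 (all probes 4.77% and 3.56%). An absolute log2 change of 0.5 or more was seen in 6 of the 60, or 10%, against 4.9% of all probes. These shares are descriptions without a test. Ntn1 is counted in the 16.7%, the 16.9% and the 10%. It was tested only through the wild-type pools, which favours a lower value in the mutants.

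Most guidance genes lay close to no difference. The median log2 change was -0.008 over the 60 and 0.018 over all probes, with 28 higher and 32 lower in the mutants. The middle part of the changes, from the lower to the upper quartile, ran from -0.10 to 0.12 for the guidance genes and from -0.09 to 0.10 for all probes. The 95% interval of the log2 change lay within -1 to 1 for 55 of the 60 genes (91.7%, against 93.9% of all probes) and within -0.5 to 0.5 for 38 (63.3%, against 60.8%). A 2-fold difference therefore lay outside the interval of 55 genes, while for the other 5 it did not. The ligands had a median of -0.03, with 12 higher and 20 lower, and the receptors a median of 0.02, with 16 higher and 12 lower.

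**Figure D1:**
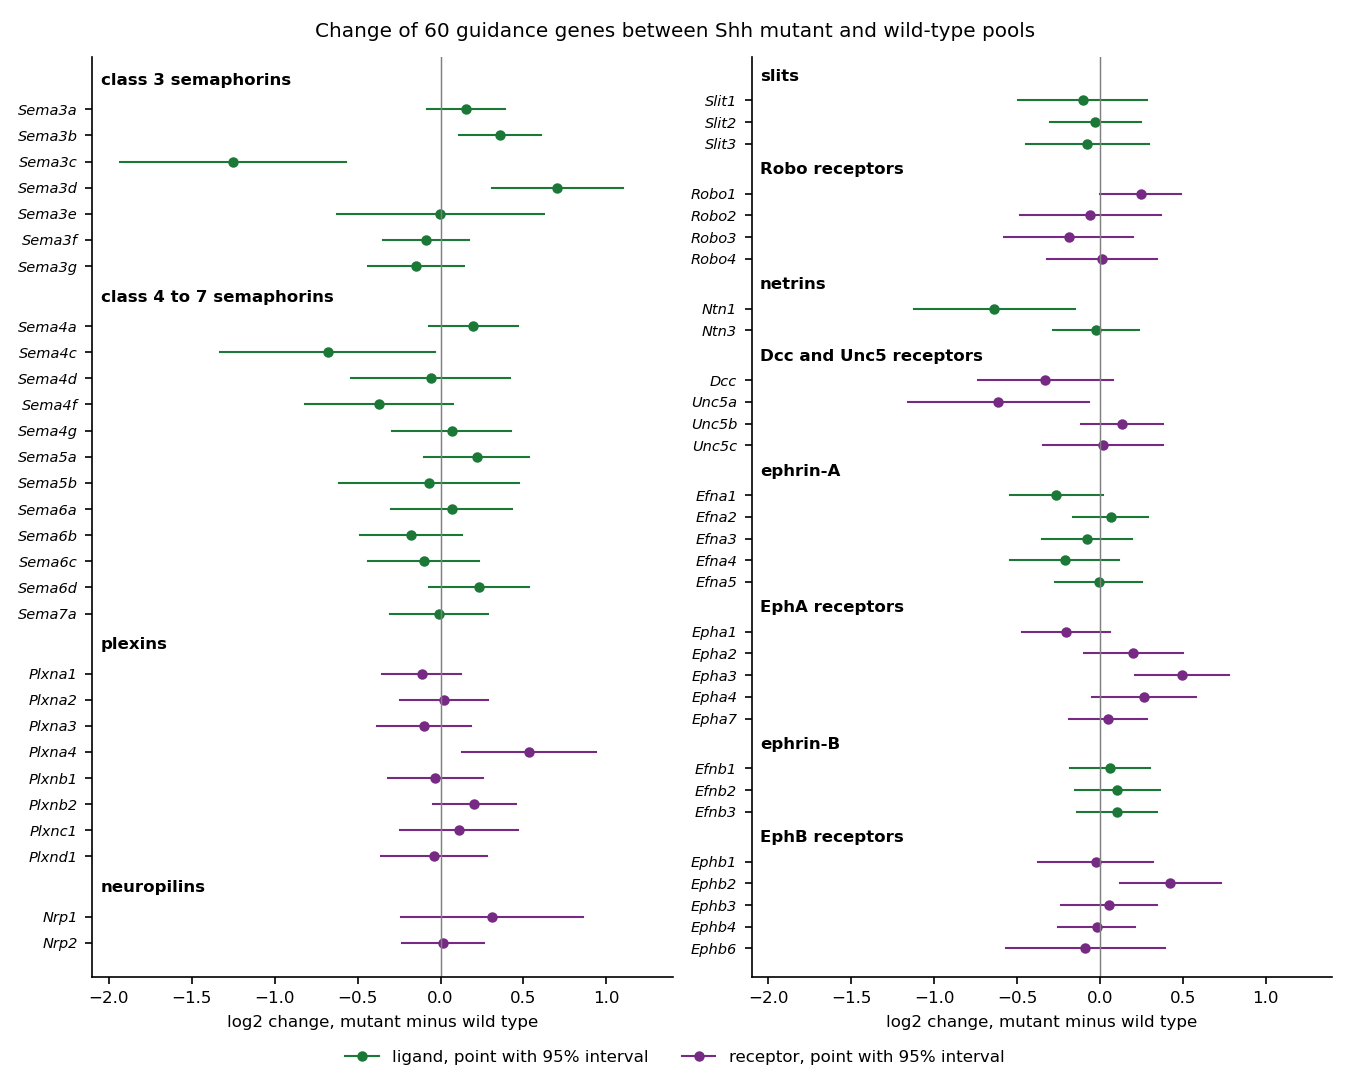
Log2 change (mutant minus wild type, x axis) of the 60 guidance genes tested, by subfamily, with points for the estimates and lines for 95% intervals from limma; green marks ligands and purple receptors. Sema3c lies farthest to the left at -1.25 and Sema3d farthest to the right at 0.70, while most intervals cross 0.

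**Figure D2:**
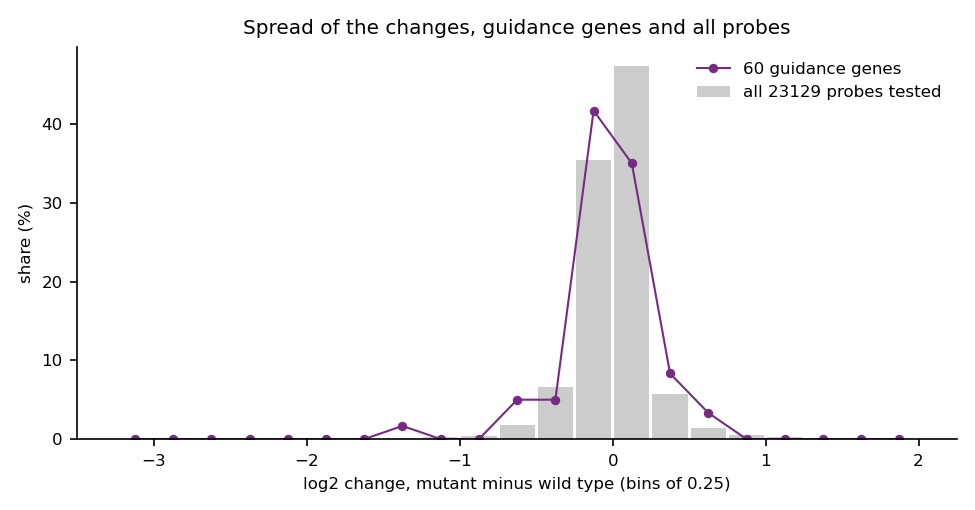
Share (%, y axis) of the 60 guidance genes (purple line) and of all 23129 probes tested (grey bars) in bins of log2 change (mutant minus wild type, x axis). Both are centred near 0, with medians of -0.008 and 0.018.

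Of the 60, 58 were well above background on all 7 arrays. Dcc and Ntn1 entered the test only through the wild-type pools so that a lower value in the mutants is favoured by their selection. The 7 genes not tested were Sema4b, Ntn4, Plxnb3, Unc5d, Epha5, Epha6 and Epha8, all of them not well above background on at least 1 array of each genotype. Epha6 and Unc5d stayed below that level on all 7 arrays. These dim genes are limited by the array and not shown to be silent.

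The sequences below are the first 30 of the 60 bases of the probes that read the genes described in most depth, shown because several of the largest differences rest on 1 probe. They are written as in the array files, 5′ to 3′, with nothing in capitals. The array's annotation places them on mm9, and no mm9 gene model was used here, so exon or UTR is not assigned.
Sema3c, brightest probe, chr5:17083479-17083538, plus strand: tgctcacatcattctagacgggtggttggg
Sema3c, other probe, chr5:17234078-17234137, plus strand: acgtaaagtcaagagtgactcataaagagc
Sema3d, chr5:12586136-12586195, plus strand: gccacaaagtagatagaatgtaatggaatt
Ntn1, chr11:68023811-68023870, minus strand: tattaacagagttgtgatatgtaggtcttt
Unc5a, chr13:55107242-55107301, plus strand: agcttgtgtcctgactctgtcttaagtgca
Plxna4, chr6:32094602-32094661, minus strand: ctcaccttgaataccaaccttttgaaagaa
Epha3, brightest probe, chr16:63545155-63545214, minus strand: acccagagaattatatgttcttttctacaa
The array annotates all of these to RefSeq transcripts except the brightest Sema3c probe, which was designed on another cDNA and lies 150599 bases from the probe on the RefSeq transcript. Over the 89 tested probes of the guidance genes, the longest run of bases shared between probes of different genes, on either strand, was 12.

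Values in every pool are given for the genes with no overlap between genotypes, the same sign on 3 slides and an absolute log2 change of 0.5 or more, and for 1 more gene in each subfamily, the one whose probe had the highest signal. The signal depends on the probe as well as on the RNA, so that this choice does not rank the genes by expression. That first condition was met by Sema3d, Ntn1, Unc5a and Plxna4, and by 3.02% of all probes. Sema3c, Sema3b, Sema4c, Epha3, Ephb2 and Robo1 were added after their values were seen, for an unadjusted p under 0.05.

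Class 3 semaphorins held the widest range, from -1.25 to 0.70, with 3 genes higher and 4 lower. Sema3c, a secreted ligand that attracts cardiac neural crest into the outflow tract, had the largest change of any guidance gene when read by the brightest probes. Its brightest probe read 6.57, 7.26 and 6.35 in mutant pools 1 to 3 and 7.65, 7.78 and 8.51 in wild-type pools 1, 3 and 4. The spot of mutant pool 4 was marked as an outlier and left out, and the remaining mutant pools all lay below the wild types. The log2 change was -1.25 (SE 0.29, limma adjusted p = 0.156), a signal of 41.9% of wild type with a 95% interval of 26.2% to 67.3%. With the outlier spot kept the change was -1.11 (adjusted p = 0.190). With the slide as a block it was -1.26 (fixed, adjusted p = 0.0837) or -1.25 (random, adjusted p = 0.115).

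The other Sema3c probe, the one on the RefSeq transcript, showed a smaller difference. It read 7.44, 7.23, 7.18 and 6.72 in the mutants and 7.44, 7.57 and 7.42 in the wild types, so that the groups overlapped. Its log2 change was -0.33 (SE 0.17, limma adjusted p = 0.747), and the mean of both probes was -0.79. By this probe alone, Sema3c would not have had the largest change among the guidance genes.

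Sema3d, a secreted ligand known for patterning endothelial cells at the pulmonary veins, had the largest positive change. It read 8.73, 8.29, 8.53 and 8.13 in mutant pools 1 to 4 against 7.74, 7.95 and 7.46 for the wild types. The mutants all lay above the wild types, and the differences within slides 1, 3 and 4 were 0.99, 0.58 and 0.67. Over all pools the log2 change was 0.70 (SE 0.17, limma adjusted p = 0.160), or 163% of wild type with a 95% interval of 124% to 214%. Sema3b read 9.08 to 9.13 in the mutants and 8.59, 8.88 and 8.75 in the wild types, also without overlap (log2 change 0.36, adjusted p = 0.289). Sema3a, a repellent of axons and neural crest, did not overlap either, but by a small difference (log2 change 0.15, adjusted p = 0.957).

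None of the remaining class 3 genes stood apart. Sema3g read 9.82, 9.53, 9.62 and 9.59 in the mutants and 9.98, 9.73 and 9.65 in the wild types (log2 change -0.15, limma adjusted p = 1.00). Sema3e, a ligand for Plxnd1 that acts without neuropilins, had a change of -0.002 with a wide interval of -0.63 to 0.62. Its other tested probe gave -0.45 (adjusted p = 0.977), lower in the mutant on 3 of 3 slides but with groups that overlapped. Sema3f had a change of -0.09.

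Of the semaphorins of classes 4 to 7, which are membrane-bound or anchored, 12 of 13 were tested and 5 were higher and 7 lower (median -0.03). Sema4c had the largest difference and also the largest spread. It read 9.22, 10.10, 9.95 and 9.44 in the mutants and 9.87, 10.27 and 10.94 in the wild types, so that the groups overlapped although each mutant was below the wild type of its slide. The log2 change was -0.68 (SE 0.29, limma adjusted p = 0.584), and -0.39 without wild-type pool 4. Its other probe gave -0.60. Sema6d, a ligand known for endocardial and myocardial migration, read 10.87, 11.001, 10.98 and 10.55 against 10.58, 10.68 and 10.59 (log2 change 0.23, adjusted p = 0.859). The lowest mutant pool was below all wild types there.

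Plexins, the signalling receptors of semaphorins, were split evenly, 4 higher and 4 lower of the 8 tested, with 7 of the 8 intervals inside -0.5 to 0.5. Plxna4, a receptor for class 3 and class 6 semaphorins, was the exception. It read 10.16, 9.94, 10.47 and 9.87 in the mutants and 9.30, 9.79 and 9.65 in the wild types. All mutants were above all wild types, with differences of 0.87, 0.69 and 0.22 within slides 1, 3 and 4. Over all pools the log2 change was 0.53 (SE 0.18, limma adjusted p = 0.370), and its other tested probe gave 0.21 (adjusted p = 0.985).

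Plxna2, a receptor for class 3 and class 6 semaphorins, read 13.01, 12.88, 12.91 and 12.68 against 12.94, 12.78 and 12.83, at 101% of wild type with a 95% interval of 84.4% to 122%. Plxnd1, the endothelial receptor known from outflow tract defects, had a change of -0.04 with an interval of -0.36 to 0.28. Plxnb2 was the next highest at 0.20 (limma adjusted p = 0.814).

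The neuropilins bind class 3 semaphorins and VEGF. Nrp2 read 14.58, 14.53, 14.51 and 14.40 in the mutants and 14.62, 14.47 and 14.39 in the wild types, with groups that overlapped. It stood at 101% of wild type with a 95% interval of 85.0% to 120%. The brightest Nrp1 probe differed in sign between slides, with differences of 0.94, 0.56 and -0.46 (log2 change over all pools 0.31, limma adjusted p = 1.00). All 3 tested probes of the gene were higher in the mutants over all pools, by 0.14 to 0.41. The probe with the largest change was higher on each slide, by 0.81, 0.44 and 0.72, but with groups that overlapped (limma adjusted p = 0.976).

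**Figure D3:**
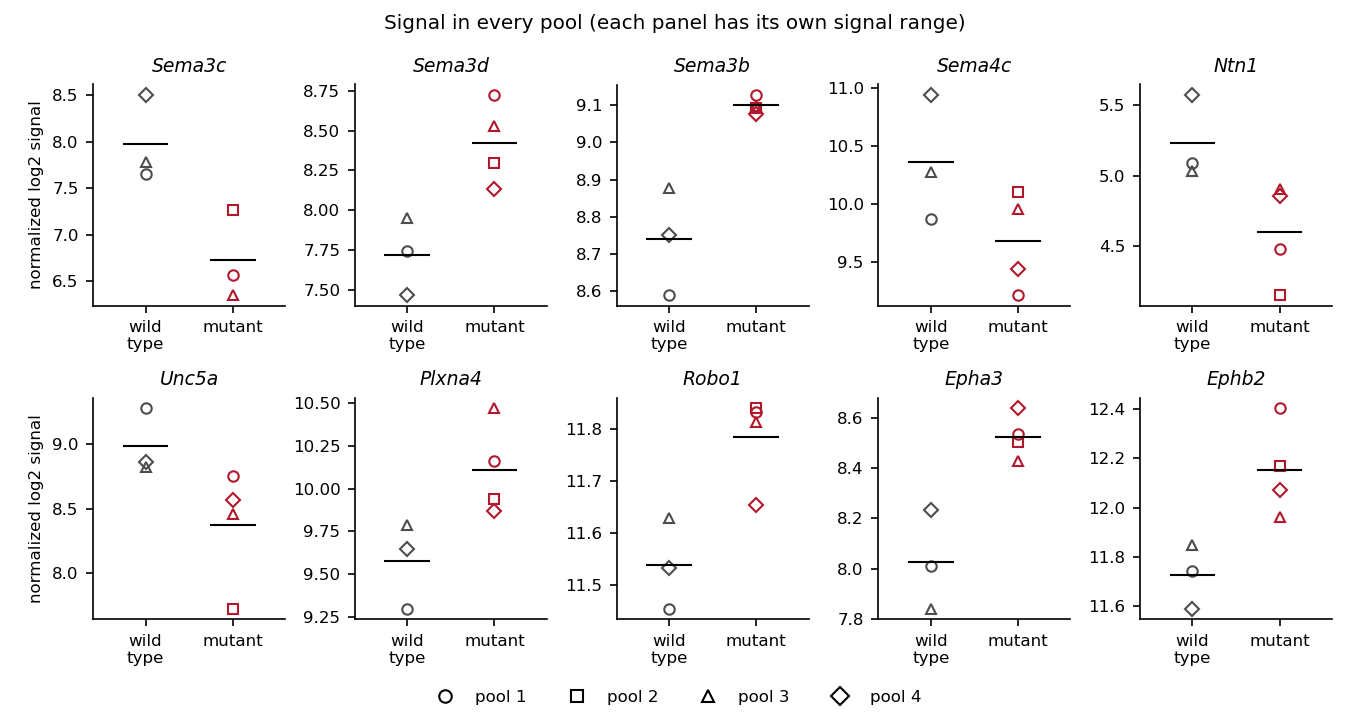
Normalized log2 signal (y axis, a separate range in each panel) of the 10 guidance genes with an unadjusted p under 0.05, in 3 wild-type pools (grey) and 4 mutant pools (red), with symbols for pool numbers and bars for group means. The groups overlap for Sema4c only, and Sema3c has 3 mutant values because the spot of pool 4 was left out.

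The 3 slits were all slightly lower in the mutants, at -0.10, -0.03 and -0.08 for Slit1, Slit2 and Slit3, and all 3 intervals lay within -0.5 to 0.5. Slit2 read 11.13, 11.15, 11.07 and 11.04 against 11.35, 10.996 and 11.03, and 2 of the 3 slides had the mutant above the wild type. Among their receptors, Robo1, which with its ligands is known for cardiac chamber and venous formation, read 11.83, 11.84, 11.81 and 11.65 in the mutants. The wild types read 11.45, 11.63 and 11.53, below all mutants. The log2 change was 0.25 (SE 0.11, limma adjusted p = 0.612). Robo4, an endothelial receptor, read 12.18, 12.43, 12.17 and 11.87 against 12.28, 12.08 and 12.08 (log2 change 0.01). Robo2 and Robo3 had changes of -0.06 and -0.19.

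Ntn1, the netrin that attracts through Dcc and repels through Unc5 receptors, was dim on these arrays. It read 4.48, 4.15, 4.91 and 4.85 in the mutants and 5.09, 5.03 and 5.58 in the wild types. The gene was tested only through the wild-type pools, so that a lower value in the mutants is favoured by its selection. All mutants were below all wild types, but on slide 3 the difference was only -0.13, and just 2 of the 4 mutant pools were well above background. Over all pools the log2 change was -0.64 (SE 0.21, limma adjusted p = 0.370), and the gene's other probe stayed below that level on all 7 arrays. Ntn1 is known from the floor plate of the neural tube, a tissue that the dissection left out. The neural tube and neuron list had 11 of 14 tested genes lower and 3 higher in the mutants (0 passing). Its mean log2 signal was 8.49 to 8.83 in the mutants and 8.78 to 8.90 in the wild types, levels that overlapped. Sox1 and Nkx2-2 of that list were not well above background. The part of such cells in the Ntn1 value was not tested. Ntn3 read 10.504, 10.58, 10.40 and 10.39 against 10.58, 10.33 and 10.56, at 98.4% of wild type with a 95% interval of 82.2% to 118%.

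Of the netrin receptors, Unc5a read 8.75, 7.72, 8.46 and 8.57 in the mutants and 9.28, 8.82 and 8.86 in the wild types. The mutants were lower throughout, and within slides the differences were -0.53, -0.37 and -0.29. The log2 change was -0.61 (SE 0.24, limma adjusted p = 0.515), or 65.3% of wild type with an interval of 44.8% to 95.4%. Without mutant pool 2, the array with the possible leak, the change was -0.40. Unc5a is known mainly from neurons, and the part of neurons in its value was not tested.

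Unc5b, the receptor of endothelial cells, read 13.01, 12.93, 13.00 and 12.80 in the mutants and 12.70, 12.89 and 12.82 in the wild types (log2 change 0.13, limma adjusted p = 1.00). Dcc, the attractive receptor, had a change of -0.33 (adjusted p = 0.818) and Unc5c one of 0.02.

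Among the ephrins, which signal to Eph receptors on neighbouring cells, no gene stood apart. The 3 ephrin-B ligands were all slightly higher, from 0.06 to 0.11, and all 3 intervals lay within -0.5 to 0.5. Efnb1 read 13.92, 14.04, 13.91 and 13.96 against 14.02, 13.81 and 13.86, at 104% of wild type with an interval of 88.4% to 123%. Efnb2, the arterial ephrin, had a change of 0.11. Of the 5 ephrin-A ligands 4 were lower, the most for Efna1 at -0.26 (limma adjusted p = 0.698). Efna5 read 13.64, 13.55, 13.36 and 13.37 against 13.57, 13.44 and 13.44, at 99.5% of wild type with an interval of 82.9% to 119%.

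The EphA receptors, which bind ephrin-A, were tested for 5 of 8 genes, 4 of them higher (median 0.20). Epha3, known for its role in forming the atrioventricular cushions and the atrial septum, read 8.53, 8.50, 8.43 and 8.64 in the mutants and 8.01, 7.84 and 8.24 in the wild types. The groups did not overlap, and slides 1, 3 and 4 gave similar differences of 0.52, 0.59 and 0.40. Over all pools the log2 change was 0.50 (SE 0.13, limma adjusted p = 0.166), or 141% of wild type with an interval of 116% to 172%. All 3 probes of the gene were higher in the mutants over all pools, by 0.28 to 0.50. The probe with the smallest change was lower in the mutant on slide 1 (-0.20), and its groups overlapped (limma adjusted p = 0.986). Epha4 read 13.34, 13.22, 12.93 and 12.88 against 12.89, 12.76 and 12.84 (log2 change 0.26, adjusted p = 0.785). Epha1 was the only tested gene of the group that was lower, at -0.20 without overlap (adjusted p = 0.860).

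Among the EphB receptors, which bind ephrin-B, Ephb2 read 12.40, 12.17, 11.96 and 12.07 in the mutants and 11.74, 11.85 and 11.59 in the wild types. All mutants were above all wild types (log2 change 0.42, SE 0.13, limma adjusted p = 0.330). The gene's other, dimmer probe gave -0.09 (adjusted p = 1.00). Ephb3 read 12.35, 12.37, 12.02 and 12.07 against 12.20, 12.13 and 12.10 (log2 change 0.06), and Ephb4, the venous receptor of Efnb2, had a change of -0.02 with an interval of -0.25 to 0.21.

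**Figure D4:**
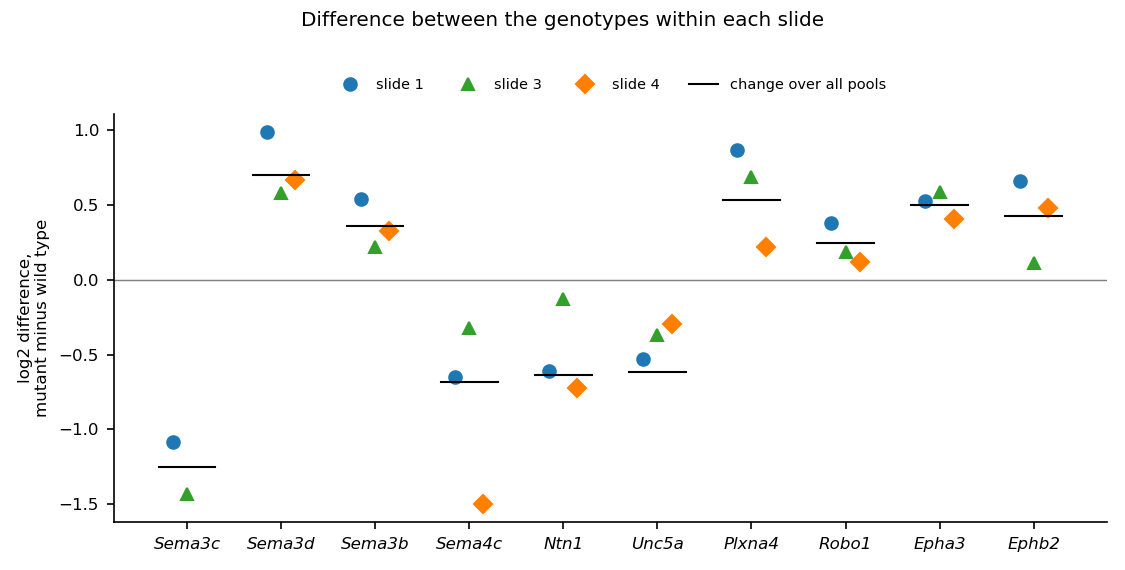
Log2 difference (mutant minus wild type, y axis) within slides 1, 3 and 4 for the 10 guidance genes with an unadjusted p under 0.05, with black bars for the change over all pools. Every plotted slide has the sign of the pooled change, and Sema3c has no value for slide 4.

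At the median, probes of the same gene differed by about as much as the genes changed. Of 25 genes with more than 1 tested probe, the median distance between the lowest and the highest log2 change was 0.12. The median absolute log2 change of the guidance genes tested was 0.105. A distance over 0.5 was seen for 3 genes, namely Sema3c, Ephb4 and Ephb2. The other Ephb4 probe read 8.98 in mutant pool 1 and 4.99 to 5.89 elsewhere, so that its change of 0.61 rested on that array.

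**Figure D5:**
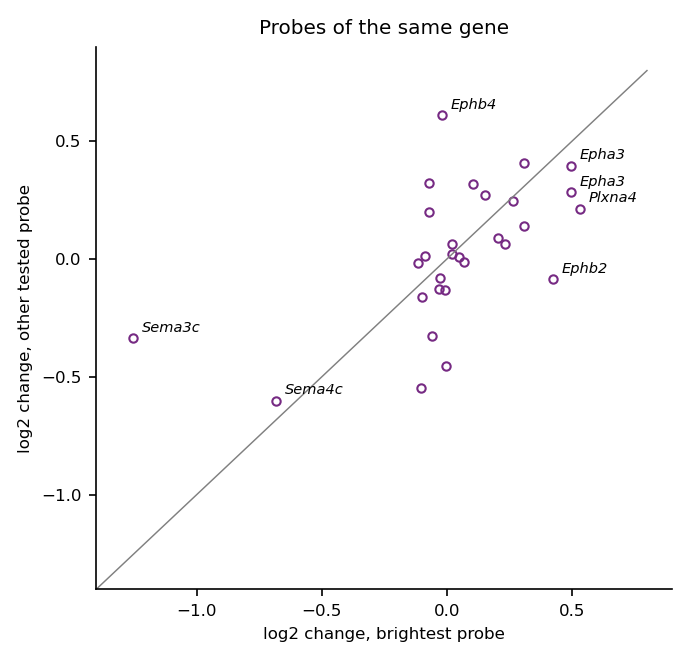
Log2 change (mutant minus wild type) of the brightest probe (x axis) against each other tested probe of the same gene (y axis), with a grey line for equal values. Sema3c, Ephb4 and Ephb2 lie farthest from the line, and the Sema4c probes near it.

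The co-receptors and signalling partners of these families were read from a list of 62 genes, of which 59 were tested. Of these 33 were higher and 26 lower (median 0.02), and 1 passed the test, against 0.558% of all probes. Ntng1, a membrane-anchored relative of the netrins that binds other receptors, read 10.53, 10.91, 10.34 and 10.77 in the mutants and 11.85, 11.64 and 11.68 in the wild types. It fell by 1.09 on the log2 scale (SE 0.15, limma adjusted p = 0.0300), with all mutants below all wild types. With the slide as a block the adjusted p was 0.0567 (fixed, log2 change -1.18) or 0.0201 (random, -1.10), and without wild-type pool 1, mutant pool 3, wild-type pool 3 or wild-type pool 4 it lay between 0.0798 and 0.135, so that the call depends on those arrays. Over all fits that left out 1 pool, the log2 change itself ran from -1.18 to -0.99.

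Dscam, an alternative netrin receptor, read 8.24, 8.04, 7.99 and 7.59 in the mutants and 7.13, 7.15 and 6.95 in the wild types (log2 change 0.89, SE 0.16, limma adjusted p = 0.0551). It did not overlap between genotypes. With the slide as a block the adjusted p was 0.0889 (fixed) or 0.0370 (random), and without mutant pool 4 it was 0.0251. Nrcam, an adhesion molecule that joins neuropilin complexes, had a change of -0.67 (adjusted p = 0.118), and Mical2, an actin-oxidising enzyme of a family that acts downstream of plexins, one of 0.68 (adjusted p = 0.299). Both were without overlap. L1cam, Ntng2 and Plxdc1 were not well above background.

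The promoters of the guidance genes were read for the core of the Gli motif, since Gli proteins are the transcription factors of the Hedgehog pathway. RefSeq (GRCm38.p6) promoters, of 250 bases before and 50 after the gene start, were at hand for 57 of the 67 genes, in 73 promoters. No entry was found for Sema3b, Sema3f, Sema6a, Slit1, Ntn1, Dcc, Unc5d, Efnb3, Plxna1 or Plxna4. ACCACCC on either strand was found in 3 of the 73 (4.11%), those of Robo4, Sema6b and Unc5a, and in 4.61% of all 32851 promoters, so that the share among the guidance genes was near that of all promoters. The paper found its Gli3 peaks mainly between genes and far from gene starts, where these promoters do not reach. Gli sites at a distance were not tested. Unc5a was the only gene with a log2 difference of 0.5 or more among the 3. Its 250 bases before the gene start are shown with the match, read on the opposite strand, in capitals. It ends 196 bases before the start.
Unc5a, chr13:54949161-54949410, GRCm38.p6, plus strand: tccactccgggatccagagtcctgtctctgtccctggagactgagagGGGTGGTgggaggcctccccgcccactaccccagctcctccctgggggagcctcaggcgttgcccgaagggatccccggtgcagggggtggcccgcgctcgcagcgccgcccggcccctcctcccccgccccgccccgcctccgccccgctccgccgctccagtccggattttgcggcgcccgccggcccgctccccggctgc

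Markers of other cell types were read in the same pools, where 55.4% of all probes tested were higher and 44.6% lower in the mutants. The neural crest list, cells that express many of these receptors, had 9 of 10 genes lower in the mutants (1 passing the test), with mean log2 signals over the list of 9.498 to 9.84 against 9.87 to 10.22. The sclerotome list had 7 of 8 lower (2 passing), at 6.72 to 7.07 against 7.75 to 8.40. Its passing genes were Pax1 (log2 change -3.01, limma adjusted p = 0.0423) and Pax9 (-2.55, limma adjusted p = 0.0357). Pax9 was tested only through the wild-type pools, which favours a lower value in the mutants. The foregut endoderm list had 8 of 11 lower (0 passing), at 11.32 to 11.37 against 11.40 to 11.48. The second heart field list itself had 10 of 16 lower and 6 higher (1 passing), at 10.45 to 10.59 against 10.88 to 10.93. The passing gene was Foxf2 (log2 change -2.43, limma adjusted p = 0.00215). The authors report Foxf2 and Foxf1a, both on the list, as Hedgehog targets. The level of this list, as of the others, thus does not stand for cell number alone. In every list, fewer cells and less RNA per cell cannot be told apart. The endothelial list had 11 of 14 higher (0 passing), at 10.78 to 11.13 against 10.83 to 10.94. The liver bud list had 10 of 10 higher (5 passing), at 11.17 to 11.58 against 10.47 to 10.68. The cardiomyocyte list had 12 of 12 higher (0 passing), at 12.49 to 13.92 against 12.59 to 13.39, and the list of primitive red cells 10 of 10 lower (0 passing), at 11.44 to 11.89 against 11.82 to 12.63. The myotome list had 2 lower and 2 higher of 4 tested (0 passing), at 8.38 to 8.77 against 8.65 to 9.49. The levels of the endothelial, cardiomyocyte, red cell and myotome lists overlapped between the genotypes, as did those of the neural tube and neuron list given above. The part of these cells in the guidance gene values was not tested.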

How the data were processed

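The 7 arrays were 1-colour Agilent whole mouse genome arrays with 43379 spots for genes, scanned by the authors with Feature Extraction 10.5.1.1; the deposited intensity is the mean signal of each spot. The authors, who describe background correction and variance stabilising normalization (VSN), also deposited log2 values, used here as an alternative. The medians of these values differed between arrays, from 5.50 in mutant pool 2 to 9.93 in mutant pool 4. From the mean signals, background was corrected by normexp on 153 negative control spots with an offset of 50, outlier spots were left out, and an own implementation of VSN (quantile 0.9, 7 iterations, 5 strata) was followed by log2. Spots of 1 probe were averaged. The authors' significance test (samr) was not run. Probes with a gene name and a signal well above background throughout the mutant or throughout the wild-type arrays were fitted with limma 3.58.1 (R 4.3.3) on genotype, and p-values were adjusted by Benjamini-Hochberg over all 23129 probes. Only the VSN and limma steps were checked on simulated arrays, not the background correction, the outlier spots or the filter. Signals depend on the probe; they were used to pick the probe of each gene and 1 gene to show in each subfamily, not to compare expression between genes.

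A shared replicate number marks a shared slide, per the labels. Deviations of same-slide arrays correlated at 0.19, 0.24 and 0.03, and slide was used as a block in alternative fits. In 9 pairs of arrays on different slides the correlation ran from -0.22 to 0.187, with a mean of -0.049. The members and gene lists were chosen with earlier results of these data known. Alternatives changed the scaling, the background correction, the filter, the treatment of outliers, the probe choice and the arrays included, and 1 alternative was added after the data were seen (authors' values set to the same median).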

Additional observations from a re-analysis of the deposited data

Results flagged for a closer look

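Robo1 had 1 mutant pool apart from the others. Pool 4 read 11.65 and the other mutant pools 11.81 to 11.84, so that the gap took up 0.855 of the range of the 4 mutant pools, above Dixon's 95% critical value for 4 samples. It was the only such case among 22 genes examined, and chance alone gives about 1 in 20 groups.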

How the results depend on the processing

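No guidance gene passed the test under any alternative run (0 called throughout), with a lowest adjusted p of 0.0647, for Sema3c on the probes above the median interquartile range. Their median change moved only with the authors' values as deposited, to -0.561, where the median of all probes was at -0.544 because array medians ran from 5.50 to 9.93. With those values 0 probes and 0 partners were called, and changes turned negative for Sema6d (-0.41), Efnb1 (-0.32), Epha3 (-0.13), Epha4 (-0.25), Ephb2 (-0.18), Ephb3 (-0.54), Robo4 (-0.58), Unc5b (-0.42), Robo1 (-0.37), Nrp2 (-0.27), Plxna4 (-0.11), Sema3b (-0.28) and Plxna2 (-0.53). Set to 1 median per array, they gave 0 probes, 0 partners and Efna5 at 0.13.

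Plxna2, Robo4 and Nrp2 turned to -0.017, -0.022 and -0.024 with 75th percentile scaling, -0.033, -0.024 and -0.011 with the processed signal, -0.027, -0.033 and -0.035 without background correction, and -0.024, -0.032 and -0.024 with quantile normalization. With the slide as a fixed replicate block Ephb3 was at -0.000306 and Robo4 at -0.076, 11 probes and 0 partners were called, and no guidance gene changed its side of the threshold; as a random replicate block 2 partners were called. The processed signal gave 56 probes, no filter on dim probes 33 probes and 0 partners, and the interquartile filter 2 partners.

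The Shh probe passed the threshold with 75th percentile scaling (-1.06, adjusted p = 0.0460), the interquartile filter (-1.08, adjusted p = 0.0353), the random block (-1.08, adjusted p = 0.0466) and a variance trend (-1.08, adjusted p = 0.0359). Leaving out 1 pool gave 12 to 136 probes, 0 to 2 partners, a Shh change of -1.33 to -0.95, Efna5 -0.061 to 0.035, Ephb3 -0.000306 to 0.12, Nrp2 -0.040 to 0.075, Ntn3 -0.10 to 0.022, Plxna2 -0.027 to 0.084, Robo4 -0.076 to 0.11 and Slit2 -0.093 to 0.084. The cause of these moves was not tested. Signal near background limits Ntn1, Dcc and the 7 genes not tested.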
